A study of Mus musculus with 5 samples.

Results

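The inflammasome and pyroptosis genes described here are 9 mouse genes taken by symbol. They are the sensors Nlrp3, Nlrc4 and Aim2, the adaptor Pycard, the caspases Casp1 and Casp4, the pore-forming gasdermin Gsdmd and the cytokines Il1b and Il18. All 9 were on the array, with 1 probe set (called a probe below) each, among 19505 named genes and 22203 probes. The rule names symbols and uses no measured value, but the set was chosen with earlier results of the same arrays known. Each gene was compared between the treatments in every tumour.

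An inflammasome is a protein complex that forms in the cytosol when a sensor meets a microbial product or a sign of damage. The sensor recruits the adaptor ASC, encoded by Pycard, and ASC gathers caspase-1, which cuts the precursors of IL-1β and IL-18 into their active forms. Caspase-1, and in mice also caspase-11 (the product of Casp4), cut gasdermin D, whose freed part forms pores in the plasma membrane and can end in the lytic death called pyroptosis. Macrophages and monocytes are well-known users of this pathway, and much of its control lies in protein assembly and cleavage, which mRNA arrays do not measure.

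RNA came from subcutaneous melanomas of wild-type C57BL/6 mice aged 10 weeks, grown from injected B16.F10 melanoma cells with luciferase and green fluorescent protein. The RG7112 group had 3 tumours from mice given anti-PD-1, an antibody against an inhibitory receptor of T cells, and RG7112, a small molecule that keeps MDM2 from binding p53. The vehicle group had 2 tumours from mice given anti-PD-1 and vehicle (corn oil with 5% DMSO). Every animal received anti-PD-1 into the peritoneum on days 1, 4 and 8. RG7112 or vehicle was given by mouth every 2 days for 6 days, and tumours were removed on day 13. No group without anti-PD-1 was analysed here, and 1 injected cell line is the only tumour model. The tumours carry the numbers of the labels, 1, 2 and 3 with RG7112 and 3 and 4 with vehicle.

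All 5 arrays had medians between 5.76 and 5.81 on the log2 scale, and correlations across probes between arrays ran from 0.983 to 0.992. The labelled tissue was checked on 12 markers of the melanocyte lineage, whose mean log2 signal was 11.3 to 11.4 in RG7112 tumours and 11.2 to 11.3 in vehicle tumours. Of the genes that report on MDM2 and p53, Mdm2 itself, which p53 induces, differed by 0.34 ± 0.21 (log2, RG7112 minus vehicle, SE; limma adjusted p = 0.738). The p53 targets Cdkn1a, Ccng1 and Sesn2 differed by -0.11 ± 0.17, -0.03 ± 0.21 and -0.49 ± 0.18, and none of the 4 passed the test (limma adjusted p from 0.384 to 0.987), while the sign of Ccng1 turned when some tumours were left out. Leaving out each tumour in turn gave 0.15 (without RG7112 tumour 1) to 0.54 (without RG7112 tumour 3) for Mdm2 and -0.23 (without RG7112 tumour 1) to -0.0027 (without vehicle tumour 3) for Cdkn1a.

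Of the 9 genes, 2 passed the test, both caspases and both higher in RG7112 tumours. Casp1 was 2.70-fold and Casp4 2.25-fold higher with RG7112. The other 7 genes, which include every sensor, the adaptor, gasdermin D and both cytokines, did not pass, and their log2 differences ran from -0.15 to 0.51. In limma 5 of the 9 genes had an unadjusted p under 0.05, and 1974 of 22203 probes did. The 5 genes were the caspases, Aim2, Pycard and Il1b. At a log2 change of 0.5, 3.6% of simulated changed probes were called. The test was limma on log2 signals of all 22203 probes, with a call at adjusted p under 0.05, and by this rule 1.42% of all probes were called higher and 0.0315% lower. Every RG7112 tumour lay above both vehicle tumours in 6 of the 9 genes and in 10.8% of all probes. The reverse order held for 0 of the 9 genes and for 14.0% of all probes. The median difference was 0.44 over the 9 genes and -0.03 over all probes. These genes were picked with earlier results of the same arrays known, so the counts describe them and are no independent support. In whole-tumour RNA, more or fewer cells of a type and more or less RNA per cell cannot be told apart.

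**Figure D1:**
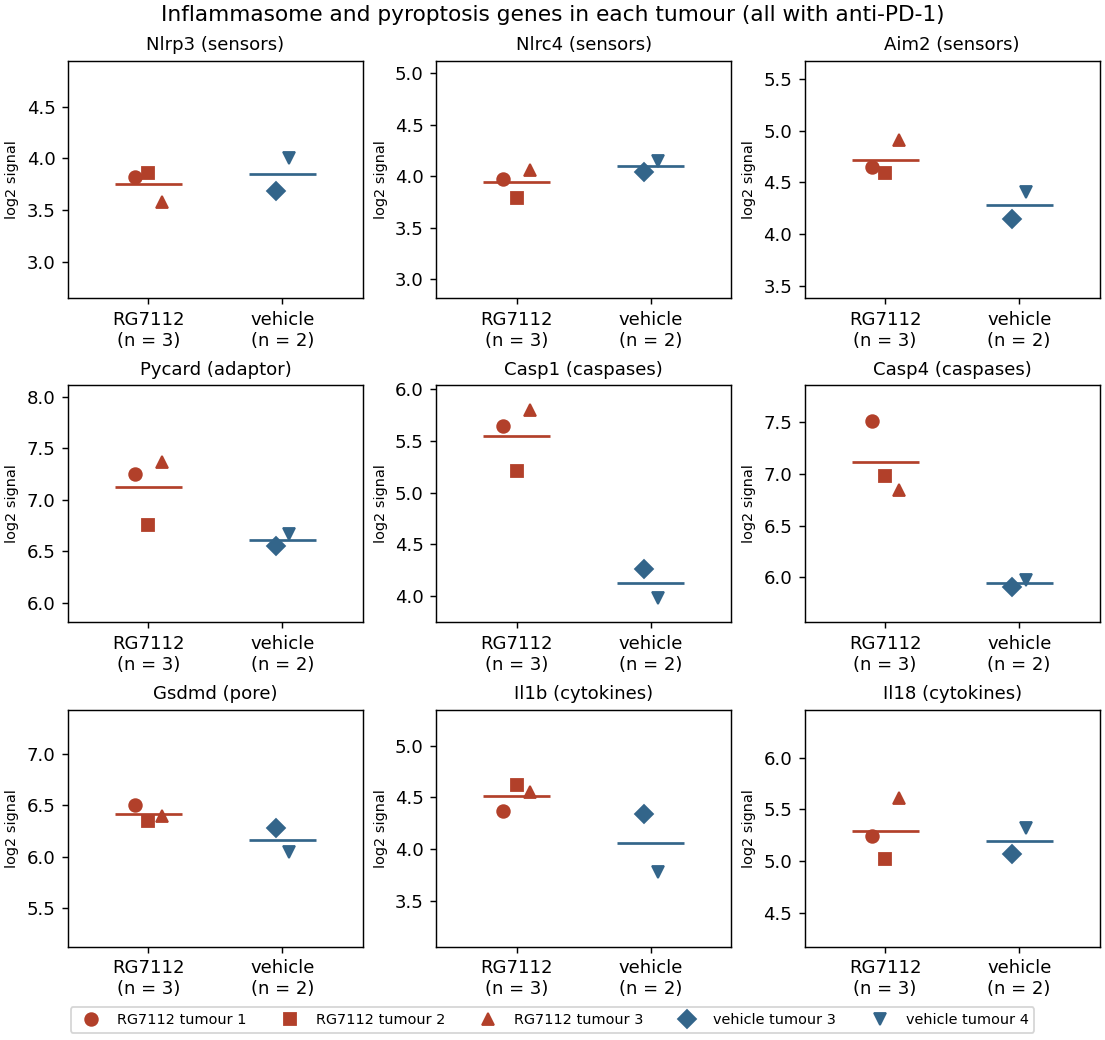
Log2 array signal of the 9 genes (vertical axis) in the 3 RG7112 tumours (red) and the 2 vehicle tumours (blue), 1 point per tumour and a line at each group mean; all vertical axes cover the same span, so distances can be compared between panels. Casp1 and Casp4 show a gap of 0.95 and 0.87 between the groups, while the groups overlap in Nlrp3, Nlrc4 and Il18.

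Casp1 (probe TC0900000031.mm.2) encodes caspase-1, the protease at the centre of the canonical inflammasome. Its log2 signal was 5.64, 5.21 and 5.80 in RG7112 tumours 1, 2 and 3, against 4.26 and 3.98 in vehicle tumours 3 and 4. The lowest RG7112 tumour was 0.95 above the highest vehicle tumour. Means were 5.55 ± 0.31 (SD, n = 3) with RG7112 and 4.12 ± 0.20 (SD, n = 2) with vehicle. The log2 difference was 1.43 ± 0.20 (SE; limma adjusted p = 0.00367), a 2.70-fold rise with a 95% interval of 1.99 to 3.65. The rise was 1.29 without vehicle tumour 4, where it no longer passed (limma adjusted p = 0.121). Casp1 also lay just below the 40th percentile of mean signal, and it was not tested when dimmer probes were left out.

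Casp4 (probe TC0900000032.mm.2) encodes the mouse protease caspase-11, which binds bacterial lipopolysaccharide in the cytosol and starts the non-canonical inflammasome. Its log2 signal was 7.51, 6.98 and 6.84 in RG7112 tumours 1, 2 and 3, against 5.91 and 5.98 in vehicle tumours 3 and 4. The vehicle tumours differed from each other by far less than the gap of 0.87 to the lowest RG7112 tumour, and RG7112 tumour 1 stood above the other two. Means were 7.11 ± 0.35 (SD, n = 3) with RG7112 and 5.94 ± 0.05 (SD, n = 2) with vehicle. The log2 difference was 1.17 ± 0.20 (SE; limma adjusted p = 0.0140), a 2.25-fold rise with a 95% interval of 1.65 to 3.08. This call was lost without vehicle tumour 3 (1.14, limma adjusted p = 0.221) and without vehicle tumour 4 (1.21, limma adjusted p = 0.191), although the size hardly moved. With 1 vehicle tumour left, that tumour is assumed to vary like the RG7112 tumours.

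The order of the RG7112 tumours differed between these caspases, since tumour 3 had the highest Casp1 signal and the lowest Casp4 signal of the 3. In the RefSeq gene order of GRCm38.p6, Casp4 lies on chromosome 9 between Casp1 and Casp12, a further member of the inflammatory caspase family. Casp12 rose as well, by 1.12 ± 0.19 (SE; limma adjusted p = 0.0131). Its signal was 6.19, 5.69 and 5.89 in RG7112 tumours 1, 2 and 3, against 4.98 and 4.62 in vehicle tumours 3 and 4. Casp1, Casp4 and Casp12 were thus all called higher, by a rule that called 1.42% of all probes higher. Casp12 was taken from a list of regulators, and Gria4, the gene on the other side of Casp1, was not read here. A rise of the whole region was not tested. The call of Casp12 was lost without RG7112 tumour 3 (limma adjusted p = 0.0547), without vehicle tumour 3 (difference 1.31) and without vehicle tumour 4 (difference 0.94).

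The 250 bases upstream of the RefSeq starts of Casp1 and Casp4 (GRCm38.p6) are shown because these are the 2 called genes among the 9. The Casp1 window is chr9:5298267-5298516 and the Casp4 window, for the first of its 2 listed starts, chr9:5308599-5308848, both on the plus strand and written 5′ to 3′. Capitals mark matches to an NF-kB motif, which is GGG, any 3 bases and TTCC, searched on both strands.
Casp1: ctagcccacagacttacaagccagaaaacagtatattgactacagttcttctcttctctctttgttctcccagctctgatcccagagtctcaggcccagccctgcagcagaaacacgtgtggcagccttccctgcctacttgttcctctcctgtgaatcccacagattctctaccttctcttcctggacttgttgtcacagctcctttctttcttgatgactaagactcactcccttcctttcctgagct
Casp4: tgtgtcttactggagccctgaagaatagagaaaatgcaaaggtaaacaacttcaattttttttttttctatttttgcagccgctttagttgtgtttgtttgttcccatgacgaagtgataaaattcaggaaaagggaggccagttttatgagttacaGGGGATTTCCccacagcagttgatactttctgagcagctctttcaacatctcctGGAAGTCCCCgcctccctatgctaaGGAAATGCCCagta
The Casp4 window held 3 such matches, which did not overlap, starting 93, 39 and 14 bases before the start, and the Casp1 window held none. Among 32851 upstream windows of the same length in the RefSeq table, 4.65% held at least 1 match and 6 windows held 3 or more. The window of the other Casp4 start overlaps this one, holds the same 3 matches and is counted among those 6. No match to an interferon-stimulated response element (GAAA, any 2 bases and GAAA, in 2.98% of windows) or to a gamma-activated site (TTC, any 3 bases and GAA, in 7.02% of windows) was found for the 8 members with a listed promoter. A p53 half-site, searched by its consensus and found in 7.13% of windows, was matched in 1 of the 10 windows of these members, that of 1 of the 2 starts of Nlrp3. A match describes letters and is no measured site, and the absence of one says only that these letters are not in this window.

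The sensors gave no called difference. Nlrp3 responds to potassium loss and many kinds of membrane damage. Its log2 signal was 3.82, 3.86 and 3.58 in RG7112 tumours 1, 2 and 3, against 3.69 and 4.01 in vehicle tumours 3 and 4. The groups overlapped, and the log2 difference was -0.09 ± 0.17 (SE; limma adjusted p = 0.936), with a 95% interval of -0.47 to 0.29. Its sign turned without vehicle tumour 4 (0.067).

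Nlrc4 is activated by bacterial flagellin and secretion-system proteins bound to NAIP receptors. In log2 signal it was at 3.97, 3.79 and 4.06 in RG7112 tumours 1, 2 and 3, against 4.04 and 4.14 in vehicle tumours 3 and 4. RG7112 tumours 1 and 2 were the lowest of all 5, but tumour 3 lay between the vehicle tumours. The difference of -0.15 ± 0.16 (SE; limma adjusted p = 0.873) had a 95% interval of -0.51 to 0.20, and it was -0.078 without RG7112 tumour 2 and -0.10 without vehicle tumour 4.

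Aim2 binds double-stranded DNA in the cytosol. Signals of Aim2 on the log2 scale were 4.65, 4.59 and 4.91 in RG7112 tumours 1, 2 and 3, against 4.15 and 4.41 in vehicle tumours 3 and 4. The groups did not overlap and were 0.18 apart. The difference of 0.44 ± 0.17 (SE) did not pass over all probes (limma adjusted p = 0.448), and its 95% interval for this gene alone was 0.06 to 0.82. All 3 sensors, like Casp1 and Il1b, lay below the 40th percentile of mean signal, and the 4 genes above it were Pycard, Casp4, Gsdmd and Il18.

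Pycard, the adaptor ASC that links sensors to caspase-1, had log2 signals of 7.25, 6.75 and 7.36 in RG7112 tumours 1, 2 and 3, against 6.56 and 6.67 in vehicle tumours 3 and 4. RG7112 tumour 2 stood only 0.08 above the higher vehicle tumour. The difference of 0.51 ± 0.20 (SE) did not pass (limma adjusted p = 0.439), with a 95% interval of 0.07 to 0.95. It ran from 0.39 to 0.70 when each tumour was left out in turn.

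Gsdmd, the pore-forming target of both caspases, had log2 signals of 6.51, 6.35 and 6.40 in RG7112 tumours 1, 2 and 3, against 6.28 and 6.05 in vehicle tumours 3 and 4. The groups were 0.06 apart, less than the spread within the vehicle group. The difference of 0.25 ± 0.16 (SE) did not pass (limma adjusted p = 0.739), and its 95% interval of -0.10 to 0.60 ended below the whole interval of Casp1, 0.99 to 1.87. The difference between genes itself was not tested. The Gsdmd difference was 0.37 without vehicle tumour 3 and 0.14 without vehicle tumour 4.

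Il1b encodes the precursor of the fever-inducing cytokine IL-1β. The array gave log2 signals of 4.37, 4.63 and 4.55 in RG7112 tumours 1, 2 and 3, against 4.34 and 3.78 in vehicle tumours 3 and 4. Vehicle tumour 3 nearly reached RG7112 tumour 1, and vehicle tumour 4 was the low one. The difference was 0.46 ± 0.19 (SE; limma adjusted p = 0.500), and it was 0.18 without vehicle tumour 4 and 0.74 without vehicle tumour 3, so its size depended on which vehicle tumour was kept.

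Il18 encodes the precursor of IL-18, a cytokine that raises interferon gamma output of T and NK cells. Its log2 signal was 5.24, 5.02 and 5.61 in RG7112 tumours 1, 2 and 3, against 5.07 and 5.32 in vehicle tumours 3 and 4. The groups overlapped fully, since an RG7112 tumour was both the highest and the lowest of the 5. The difference was 0.10 ± 0.20 (SE; limma adjusted p = 0.943), with a 95% interval of -0.33 to 0.53, and it turned to -0.060 without RG7112 tumour 3 and to -0.024 without vehicle tumour 3.

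For a value of 1 gene, an exact two-sided permutation test over the 10 splits of the tumours cannot give a p below 0.1. This floor lies above the threshold used for calls, so no gene could pass by this test and no conclusion is drawn from it. That smallest value was reached by Casp1, Casp4, Aim2, Gsdmd and Il1b. Their gaps between the groups ran from 0.03 (Il1b) to 0.95 (Casp1), which the test cannot tell apart. The exact p was 0.2 for Pycard, 0.3 for Nlrc4, 0.6 for Nlrp3 and 0.9 for Il18.

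**Figure D2:**
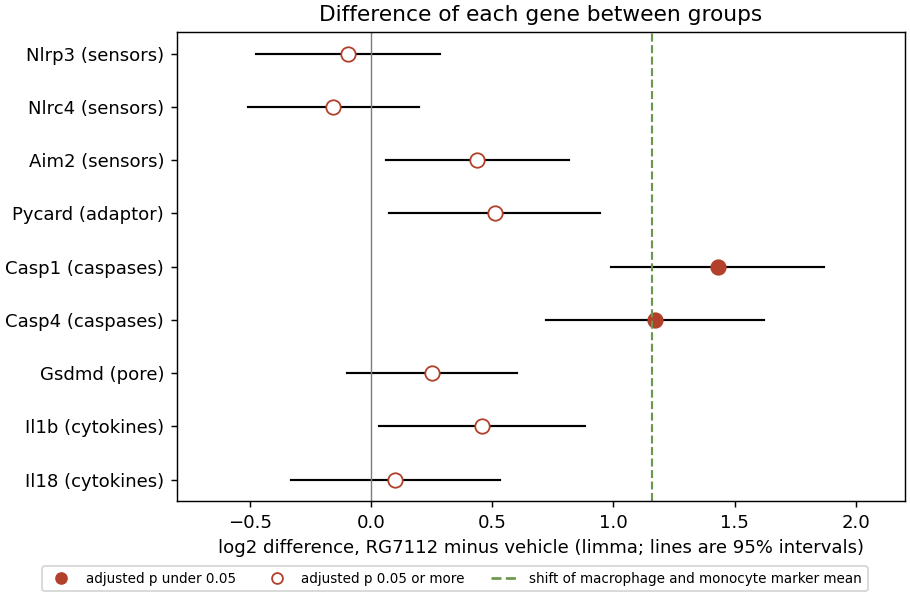
Log2 difference of each of the 9 genes, RG7112 minus vehicle (horizontal axis), with 95% intervals from limma over 3 RG7112 and 2 vehicle tumours; filled points have adjusted p under 0.05, and the dashed line marks the shift of 1.16 in the mean of 14 macrophage and monocyte markers. The intervals of Casp1 and Casp4 include that shift, and those of the other 7 genes end below it.

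The wider pathway was read from lists of genes that act around these members. Among other sensors and activators, 0 of 14 measured genes of 15 listed were called in either direction by limma (4 had an unadjusted p under 0.05), with a median difference of 0.19. Txnip, a redox protein reported to bind NLRP3, differed by 0.62 ± 0.18 (SE; limma adjusted p = 0.210). Naip5 and Naip6, the receptors that pass flagellin to NLRC4, differed by 0.61 ± 0.17 and 0.61 ± 0.17 (limma adjusted p = 0.171 and 0.178). Nlrp10 differed by 0.51 ± 0.21 (limma adjusted p = 0.470), and by 0.22 without vehicle tumour 3 and 0.80 without vehicle tumour 4.

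Among regulators of inflammasomes, 4 of 11 measured genes of 15 listed rose, 0 fell and 7 did not pass, with a median difference of 0.45. Beside Casp12 these were Trim30a, Gbp2 and Irf1. Trim30a, an interferon-induced protein reported in mouse cells to dampen NLRP3 activity, rose by 2.12 ± 0.21 (SE; limma adjusted p = 0.000555). Its signal was 7.32, 6.77 and 7.26 in RG7112 tumours 1, 2 and 3, against 5.22 and 4.76 in vehicle tumours 3 and 4, and it stayed called in every alternative run here. Gbp2, a guanylate-binding protein that coats bacteria and their vacuoles and so exposes lipopolysaccharide and DNA, rose by 1.54 ± 0.19 (limma adjusted p = 0.00186). Irf1, the interferon-induced transcription factor of Gbp genes, rose by 1.22 ± 0.20 (limma adjusted p = 0.00890). Without vehicle tumour 4, Gbp2 (limma adjusted p = 0.0731) and Irf1 (limma adjusted p = 0.191) did not pass. Irf2, which drives Gsdmd transcription in mouse macrophages, differed by 0.28 ± 0.16 (limma adjusted p = 0.685), beside the 0.25 of Gsdmd. Serpinb1a, an inhibitor of inflammatory caspases and neutrophil proteases, differed by 0.65 ± 0.20 (limma adjusted p = 0.227), and by 0.39 without vehicle tumour 3. Irf2 and Serpinb1a were named after their values were seen.

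Of other gasdermins and genes of lytic death, 1 of 14 measured genes of 18 listed rose, 0 fell and 13 did not pass, with a median difference of 0.11. The gene was Zbp1, a nucleic acid sensor that starts necroptosis through RIPK3, with signals of 7.44, 7.13 and 7.52 in RG7112 tumours 1, 2 and 3, against 6.08 and 6.09 in vehicle tumours 3 and 4. It rose by 1.28 ± 0.17 (SE; limma adjusted p = 0.00281), and it missed the threshold without vehicle tumour 3 (limma adjusted p = 0.0570) or vehicle tumour 4 (limma adjusted p = 0.0816). Mlkl, the executioner of necroptosis, differed by 0.59 ± 0.17 (limma adjusted p = 0.204), and Casp8, the protease that holds necroptosis in check, by 0.35 ± 0.24, with 0.17 without RG7112 tumour 1 and 0.62 without RG7112 tumour 2. Gsdme, a gasdermin that caspase-3 cuts, differed by -0.42 ± 0.16 (limma adjusted p = 0.437). The 7 measured genes of the Gsdma and Gsdmc clusters differed by -0.13 to 0.20, and none was called; their range was taken after the values were seen.

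On the axis of IL-1 and IL-18, 2 of 14 measured genes of 18 listed rose, 0 fell and 12 did not pass, with a median difference of 0.35. Il18bp, a secreted protein that traps IL-18, had signals of 8.07, 7.94 and 7.51 in RG7112 tumours 1, 2 and 3, against 6.74 and 6.66 in vehicle tumours 3 and 4. It rose by 1.14 ± 0.19 (SE; limma adjusted p = 0.0111), beside a difference of 0.10 in Il18 itself. Myd88, the adaptor of IL-1, IL-18 and Toll-like receptors, rose by 1.01 ± 0.17 (limma adjusted p = 0.0119). Without vehicle tumour 3 or vehicle tumour 4, neither passed (limma adjusted p = 0.135 and 0.198 for Il18bp, 0.246 and 0.0730 for Myd88), and Myd88 also missed without RG7112 tumour 3 (limma adjusted p = 0.0529). Irak3, an inhibitor of this signalling, differed by 1.00 ± 0.25 (limma adjusted p = 0.117), and Il1rn, the IL-1 receptor antagonist, by 0.93 ± 0.32 (limma adjusted p = 0.329). Irak3 was at 0.60 without vehicle tumour 3, and Il1rn at 0.57 without RG7112 tumour 1. The receptor chains Il18r1 and Il18rap differed by 0.06 ± 0.18 and 0.04 ± 0.18 and were named after their values were seen; the first turned negative without RG7112 tumour 1 and the second without RG7112 tumour 3.

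Genes known to respond to IL-1 or IL-18 gave 0 calls in 12 measured genes of 12 listed in limma (2 at an unadjusted p under 0.05), with 6 differences above 0 and 6 below and a median of 0.01. The acute-phase protein Saa3 had signals of 8.42, 7.73 and 8.02 in RG7112 tumours 1, 2 and 3, against 9.22 and 8.40 in vehicle tumours 3 and 4, a difference of -0.75 ± 0.26 (SE; limma adjusted p = 0.332). Nfkbia, the NF-kB inhibitor that NF-kB induces, differed by 0.41 ± 0.19 (limma adjusted p = 0.561), the iron-binding protein Lcn2 by 0.56 ± 0.30 (limma adjusted p = 0.661) and the growth factor Csf2 by -0.27 ± 0.17 (limma adjusted p = 0.745). Without vehicle tumour 3 the differences were smaller for Saa3 (-0.34), Nfkbia (0.20) and Csf2 (-0.11), and without vehicle tumour 4 they were larger (-1.16, 0.63 and -0.43), while Lcn2 was at 0.19 without RG7112 tumour 1. Only 6 of the 12 response genes lay above the 40th percentile of mean signal. The lack of calls among them therefore does not show an unchanged response. Across these 5 lists, with 14, 11, 14, 14 and 12 measured genes, 7 genes were called higher and 0 lower. By the same rule 1.42% of all probes were called higher and 0.0315% lower. The lists were chosen with earlier results of the same arrays known, so the count describes them and is no independent support.

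**Figure D3:**
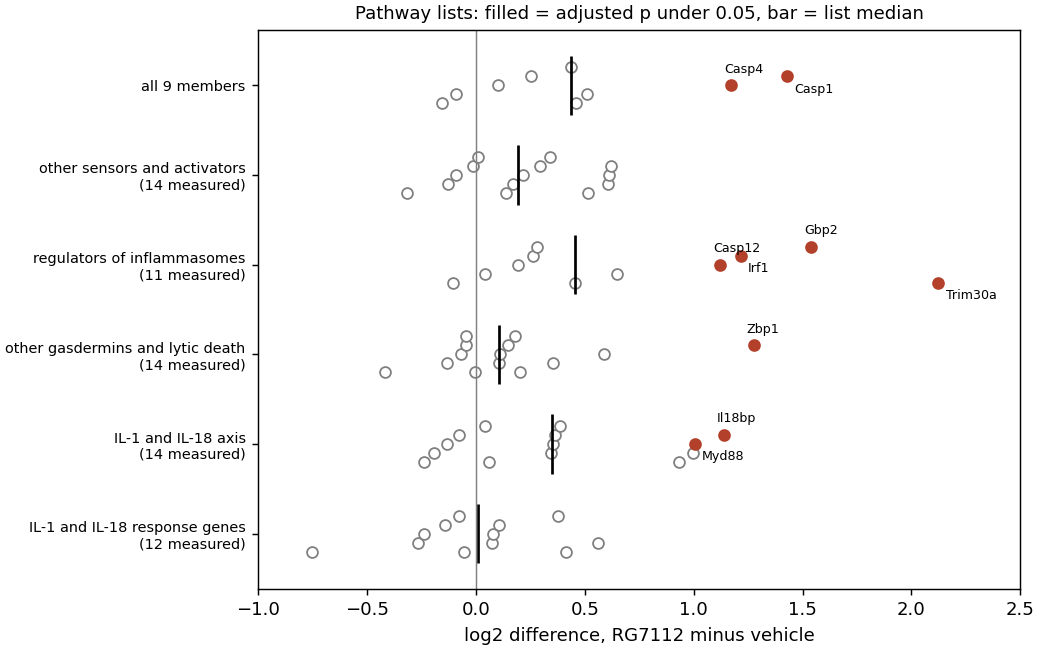
Log2 difference, RG7112 minus vehicle (horizontal axis), of the 9 genes and of the genes measured in 5 lists around them, 1 point per gene with filled points at adjusted p under 0.05 in limma and a bar at each list's median; vertical scatter within a list only separates points. Calls lie at differences of 1.01 or more, and the list of response genes has none.

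Markers of macrophages and monocytes, cells that express most of these genes, moved in the same tumours. Of 14 measured markers 8 were called higher and 0 lower in limma, and 13 had an unadjusted p under 0.05, 1 of them lower. The markers differed by -0.56 (Cd163, a scavenger receptor) to 2.57 (Aif1, an actin-binding protein). Their mean log2 signal was 7.05 to 7.42 in RG7112 tumours and 5.95 to 6.21 in vehicle tumours, a shift of 1.16. The Casp1 difference exceeded that shift by 0.27, with values from 0.12 to 0.52 in single RG7112 tumours, and the Casp4 difference by 0.01, with values from -0.26 to 0.23. The other 7 genes differed by 0.65 to 1.31 less than the marker mean. The part of these cells in the caspase result was not tested.

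Markers of T and NK cells had a mean of 5.22 to 5.36 in RG7112 tumours and 4.55 to 4.82 in vehicle tumours. In limma 1 of 11 was called higher and 7 had an unadjusted p under 0.05, with all 11 differences above 0. Endothelial markers had a mean of 6.37 to 6.50 in RG7112 tumours and 5.79 to 6.01 in vehicle tumours. Of these 8 markers 1 was called higher in limma and 5 had an unadjusted p under 0.05, with all 8 differences above 0. Among dendritic cell markers 1 of 9 was called in limma and 2 had an unadjusted p under 0.05, and the list mean overlapped between the groups. The called gene was Itgax (0.98 ± 0.20, SE, limma adjusted p = 0.0376), which macrophages also express. When each tumour was left out, Itgax stayed called only without RG7112 tumour 3. Neutrophils, a further source of IL-1β, gave 0 calls in 12 markers in limma (1 at an unadjusted p under 0.05), with means of 4.35 to 4.42 in RG7112 tumours and 4.35 to 4.39 in vehicle tumours. Keratinocyte markers, whose genes would report skin in the sample, gave 0 calls in 12 (2 at an unadjusted p under 0.05) and a mean of 4.20 to 4.53 in RG7112 tumours against 4.47 to 4.53 in vehicle tumours. B cell markers (0 of 7), fibroblast markers (0 of 9) and melanocyte lineage markers (0 of 12) had no call in limma, with 1, 2 and 2 of them at an unadjusted p under 0.05. The melanocyte lineage mean was nevertheless 0.14 higher with RG7112, and its groups did not overlap. Only 3 of 12 neutrophil, 3 of 12 keratinocyte and 1 of 7 B cell markers lay above the 40th percentile of mean signal. For fibroblast and melanocyte lineage markers it was 7 of 9 and 12 of 12. The lack of calls among neutrophil, keratinocyte and B cell markers rests mostly on dim probes and does not show unchanged cell numbers.

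**Figure D4:**
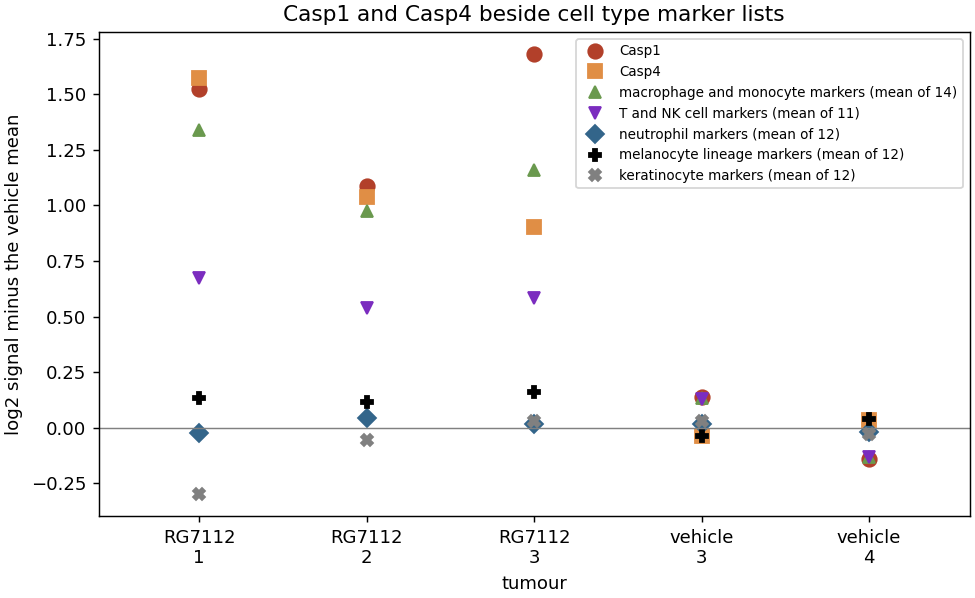
Log2 signal minus the vehicle mean (vertical axis) of Casp1, Casp4 and the means of 5 marker lists in each of the 5 tumours (horizontal axis), 1 symbol per gene or list. In the RG7112 tumours Casp1, Casp4 and the macrophage and monocyte mean all lie at 0.90 or higher, and the neutrophil, keratinocyte and melanocyte lineage means lie between -0.30 and 0.16.

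Genes with a pattern like that of Casp1 were sought by the root-mean-square difference of values centred on each gene's own mean over the 5 tumours. The nearest were Ly6e (0.08), Prph (0.08), Slc11a1 (0.10), Batf2 (0.12) and Adgre1 (0.12), with differences between groups of 1.49, 1.34, 1.54, 1.39 and 1.58 (limma adjusted p from 0.00122 to 0.00388). Adgre1, a macrophage receptor, also belongs to the marker list above, while Ly6e, Prph, Slc11a1 and Batf2 are in none of the marker lists. Absence from these short lists does not tell which cells express a gene. Among the other members, Casp4 came nearest at 0.33, followed by Pycard at 0.47, while Nlrp3 was the farthest at 0.82. With 5 tumours in 2 groups, such likeness rests largely on the group difference and is a description only. Without vehicle tumour 4, none of these 5 genes passed (limma adjusted p from 0.0574 to 0.121), and without vehicle tumour 3 Batf2 did not (limma adjusted p = 0.0699).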

How the data were processed

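Whole-tumour RNA of 5 tumours, each from its own mouse, was measured on Affymetrix Clariom S arrays, 1 array per tumour. The deposited values are log2 signals, which the authors made with RMA in oligo, per the submitters' processing notes, which means that background was corrected, arrays were quantile normalized and probes were summarized by median polish. Versions were not stated. The values ran from 2.53 to 13.3. Scanner files and scan batches were not analysed here.

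The platform annotation gave 1 gene symbol for 19572 of 22203 probes, several for 0 and none for 2631. For the 55 genes with several probes the one with the highest mean stood for the gene. RG7112 minus vehicle was fitted on all probes with limma 3.58.1 in R 4.3.3 (lmFit, eBayes, Benjamini-Hochberg over all probes, call at adjusted p under 0.05), with 3 residual degrees of freedom and a prior of 7.92. The number of arrays limits the precision. On simulated data for RG7112 against vehicle with 22203 probes, the share of truly changed probes that was called was 3.6% at a log2 change of 0.5, 62.8% at 1 and 99.6% at 2. The simulated errors were normal and independent between probes, with spread from the fitted prior, and as many probes were raised as lowered. In the real data 315 probes were called higher and 7 lower, so the shares hold for the simulated setting only.

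The members and lists were chosen with earlier results of these data known. Named were all members, called genes of the pathway lists and the 4 genes of each list with the smallest p (called ones included). The MDM2 and p53 genes, the 5 genes most like Casp1 and extremes of marker lists (Itgax, Aif1 and Cd163) were named too. Other exceptions are marked. Listed genes without a named probe were not analysed here. Promoter sequences are RefSeq, GRCm38.p6. Alternatives were other eBayes settings, array weights, 2 normalizations, probe filters, other thresholds and leaving out each tumour.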

Additional observations from a re-analysis of the deposited data

How the results depend on the processing

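Members called higher were 2 in the full set and 0 to 2 when each tumour was left out, with 0 without vehicle tumour 4 and 1 without vehicle tumour 3. Without probes under the 40th percentile of mean signal the number was 1, since Casp1 was then not among the 4 members tested. In the other alternatives it was 2. In limma 0 members were called lower in the full set and in all 15 alternatives; at an unadjusted p under 0.05 the full set had 1974 probes in both directions together. Over all probes, 315 were called higher and 7 lower in the full set, and 65 to 268 higher and 0 to 5 lower when each tumour was left out. The lowest counts were 65 and 0 without vehicle tumour 4 and 151 and 1 without vehicle tumour 3. Probes called lower were 16 with array weights, 4 after cyclic loess normalization, 2 without dim probes and 29 at adjusted p under 0.10. Of 9 members and 36 other named genes, dim ones not tested under the percentile filter, the sign turned in 5, none of them called. Left out in turn, the tumours gave Nlrp3 -0.25 to 0.067 (positive without vehicle tumour 4), Il18 -0.060 to 0.23 (-0.060 without RG7112 tumour 3 and -0.024 without vehicle tumour 3), Il18r1 -0.074 (without RG7112 tumour 1) to 0.13, Il18rap -0.059 (without RG7112 tumour 3) to 0.18 and Ccng1 -0.21 to 0.15 (0.15 without RG7112 tumour 3 and 0.0046 without vehicle tumour 4). Fewer samples or probes enter most of these fits by construction, and the cause was not tested further. No paired analysis was made, because the labels state no pairs and the tumour numbers were taken as names only.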
